A study of Mus musculus with 16 samples.

Results

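Gtf2i encodes TFII-I, and its paralogs Gtf2ird1 and Gtf2ird2 and a row of unrelated genes lie around it on mouse chromosome 5, in the segment that matches the human region deleted in Williams syndrome. The 10 genes described here are Gtf2i, Gtf2ird1, Gtf2ird2, Ncf1, Clip2, Limk1, Baz1b, Eif4h, Lat2 and Rfc2. They were taken by gene symbol from the 27928 genes of the table, and 9 of them had enough reads to be tested. RNA was sequenced from B cells of the spleens of young adult mice, sorted into follicular (FO) and marginal zone (MZ) subsets. WT mice were C57BL/6 and carried neither a floxed allele nor Cre. cKO mice were Gtf2i fl/fl and carried a Cre that acts in cells of the B lineage. Each of the 4 groups (WT FO, WT MZ, cKO FO and cKO MZ) had 2 libraries. B cells were enriched by negative selection and sorted as CD21lo CD23hi (FO) or CD21hi CD23lo (MZ). No source used here says that the libraries of a group came from separate mice. Each p thus measures the spread between samples, which may be technical at least in part.

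TFII-I is a transcription factor that binds initiator and E-box elements, and in B cells it binds Btk, the kinase that phosphorylates it when the B cell receptor is engaged. FO B cells recirculate through follicles and answer protein antigens with T cell help, whereas MZ B cells stay next to the marginal sinus and answer blood-borne antigens fast. People who lose 1 copy of the Williams region lose 1 copy of most of these genes at once. Of these genes, the cKO mice have only Gtf2i targeted, and its neighbours are left in place, so the comparison of cKO with WT asks whether Gtf2i RNA changed and whether RNA of the genes beside it did.

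In GENCODE M21 on GRCm38, Gtf2i (ENSMUSG00000060261.15) lies on the minus strand of chromosome 5, chr5:134237834-134314760. Ncf1 (chr5:134220053-134229625, minus) ends 8.2 kb and Gtf2ird2 (chr5:134184019-134224355, plus) 13.5 kb from Gtf2i on the lower side. Gtf2ird1 (chr5:134357656-134456716, minus) lies 42.9 kb away on the other side, followed by Clip2 (chr5:134489383-134552434, minus), Rfc2 (chr5:134581366-134601805, plus), Lat2 (chr5:134600022-134615025, minus), Eif4h (chr5:134619721-134639490, minus), Limk1 (chr5:134656039-134688598, minus) and, 872.5 kb from Gtf2i, Baz1b (chr5:135187264-135246129, plus). All 10 are annotated as protein-coding. Exons of Lat2 and Rfc2 overlap on opposite strands by 952 bases, 36.3% of the exon bases of Lat2 and 15.1% of those of Rfc2. Exons of Ncf1 and Gtf2ird2 overlap by 408 bases, 11.1% and 6.58% of their exon bases. The strand setting of the counting is not given in the sources used here, so reads from these overlaps cannot be assigned to 1 gene of a pair with certainty. Of the stretches of 50 bases in the transcripts of Gtf2i, the read length used, 0.18% also occur in a transcript of another gene, and for Gtf2ird2 4.8%, most of them in Ncf1.

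The 250 bases before the start of Gtf2i and of Gtf2ird2 are from RefSeq on GRCm38.p6. Gtf2i is shown as the targeted gene. Gtf2ird2 is shown because its promoter held CACGTG, 1 form of the E-box, the most times among the members with a matched promoter. The first is chr5:134314761-134315010 read on the minus strand and the second chr5:134183788-134184037 on the plus strand, both 5′ to 3′, with the E-box CACGTG in capitals.
Gtf2i: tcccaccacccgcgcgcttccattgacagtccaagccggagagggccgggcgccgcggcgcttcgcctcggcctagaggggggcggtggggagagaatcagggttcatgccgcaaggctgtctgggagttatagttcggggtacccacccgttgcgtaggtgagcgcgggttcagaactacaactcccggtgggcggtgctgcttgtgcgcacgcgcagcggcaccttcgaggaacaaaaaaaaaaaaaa
Gtf2ird2: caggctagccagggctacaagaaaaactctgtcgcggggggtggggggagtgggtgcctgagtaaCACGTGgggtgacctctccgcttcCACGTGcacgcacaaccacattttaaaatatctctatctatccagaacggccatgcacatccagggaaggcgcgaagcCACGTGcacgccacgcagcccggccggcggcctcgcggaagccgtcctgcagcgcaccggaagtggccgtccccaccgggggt
CACGTG is its own reverse complement, so that 1 search covers both strands, and it is a sequence bound by Usf1 and Usf2, partners of TFII-I. The promoter of Gtf2ird2 held it 3 times, 185, 161 and 83 bases before the start. In the promoter of Eif4h it was found 1 time, 96 bases before the start, and in those of Gtf2i, Gtf2ird1, Ncf1, Clip2, Limk1 and Baz1b 0 times. Of the 32851 mouse promoters of the same length, 6.02% held CACGTG and 20, or 0.061%, held it at least 3 times. Other forms of the E-box were not counted, so that 0 times does not mean a promoter without an E-box. Promoters were matched for 8 of the 10 genes, the others being Lat2 and Rfc2. These matches describe the letters only and no binding was measured here.

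The libraries had between 21546552 and 25083552 reads on genes. Cr2, which encodes CD21, was between 22942 and 26803 normalized counts in FO and between 86953 and 97087 in MZ libraries, and Fcer2a, which encodes CD23, between 24802 and 41973 in FO and between 3069 and 6708 in MZ libraries, so the sorted subsets carried their defining markers. cKO MZ replicate 1 stood apart in genes of other blood cells: its 9 granulocyte genes summed to 1852 normalized counts, against 23.8 to 104 in the other libraries, and its 3 erythroid genes to 9339, against 11.0 to 675. The Y-linked gene Ddx3y had at most 6.34 normalized counts in WT and at least 2682 in cKO libraries, whereas the X-linked RNA Xist had at least 25930 in WT libraries, 14748 in cKO FO replicate 1 and no more than 89.7 elsewhere in cKO. The sex of the mice and the genotype therefore cannot be told apart in the comparisons of cKO with WT. cKO FO replicate 1 had both Xist and Ddx3y RNA, whereas cKO FO replicate 2 had 67.4 normalized counts of Xist. These 2 libraries were thus not repeats of 1 RNA sample.

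Among the members, Gtf2i itself had the widest separation of the genotypes: its RNA was lower in each cKO library than in each WT library of the same subset. The normalized counts of Gtf2i in FO B cells were 2039.8 and 1992 in the WT libraries against 1523 and 1531 in the cKO libraries. In MZ B cells it had 2864 and 2471 in WT against 1782 and 1889 in cKO. The order of the groups was thus WT MZ, WT FO, cKO MZ and cKO FO, and no neighbours in this order overlapped, although WT FO and cKO MZ were not compared by a test. Between 1360 and 2974 reads lay behind each value. The level in cKO was 75.8% of that in WT in FO B cells (95% confidence interval 65.0% to 88.3%) and 69.0% in MZ B cells (59.2% to 80.4%), on the scale of log2(normalized count + 1). By limma these log2 differences were -0.40 (SE 0.095, adjusted p = 0.989) in FO and -0.54 (SE 0.095, adjusted p = 0.363) in MZ B cells, after Benjamini-Hochberg adjustment over 14761 genes. Averaged over both subsets, the level in cKO was 72.3% of that in WT (64.9% to 80.5%), a log2 difference of -0.47 (SE 0.067, limma adjusted p = 0.0793).

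Whether the adjusted p of Gtf2i fell under 0.05 depended on the model. Its change was under 1.5-fold by limma and DESeq2 with all libraries, but in MZ B cells it ranged from -0.64 to -0.43 over the alternatives and passed 1.5-fold without WT MZ replicate 2 (limma adjusted p = 0.468). By DESeq2 on the recovered reads its log2 difference over both subsets was also -0.47, with an adjusted p of 0.000235. In MZ B cells it was -0.54 with a DESeq2 adjusted p of 0.0192. In FO B cells it was -0.40 and did not pass (DESeq2 adjusted p = 0.929). With subset as a term and no interaction, a fit chosen after seeing the data, the limma adjusted p over both subsets was 0.0348. Without cKO MZ replicate 1 the difference over both subsets was -0.45, with a limma adjusted p of 0.346. In an exact permutation test of Gtf2i alone, with labels exchanged within each subset, the two-sided p was 0.0556, which is the smallest that 36 arrangements allow. Counts cover the whole gene, so that reads from exons outside a deletion are included. In sorted cells, fewer cells with the RNA and less RNA per cell cannot be told apart. The authors report the deletion of Gtf2i in B cells of these mice in DNA, mRNA and protein, by assays not analysed here.

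Of the 9 members tested, 0 were called between cKO and WT by limma in FO B cells, in MZ B cells or over both subsets, a call being an adjusted p no higher than 0.05 with a change of 1.5-fold or more. Of all tested genes, 0.0677%, 0.0339% and 0.108% were called in these comparisons. DESeq2 and edgeR also called 0 members, and 1 member, Gtf2i, had an unadjusted p under 0.05 by limma in each comparison. Gtf2i was also the 1 of the 9 with every cKO library below every WT library of its subset in both subsets, a pattern found in 5.46% of all tested genes. Of these genes, 478 had a log2 difference over both subsets at or below that of Gtf2i.

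**Figure D1:**
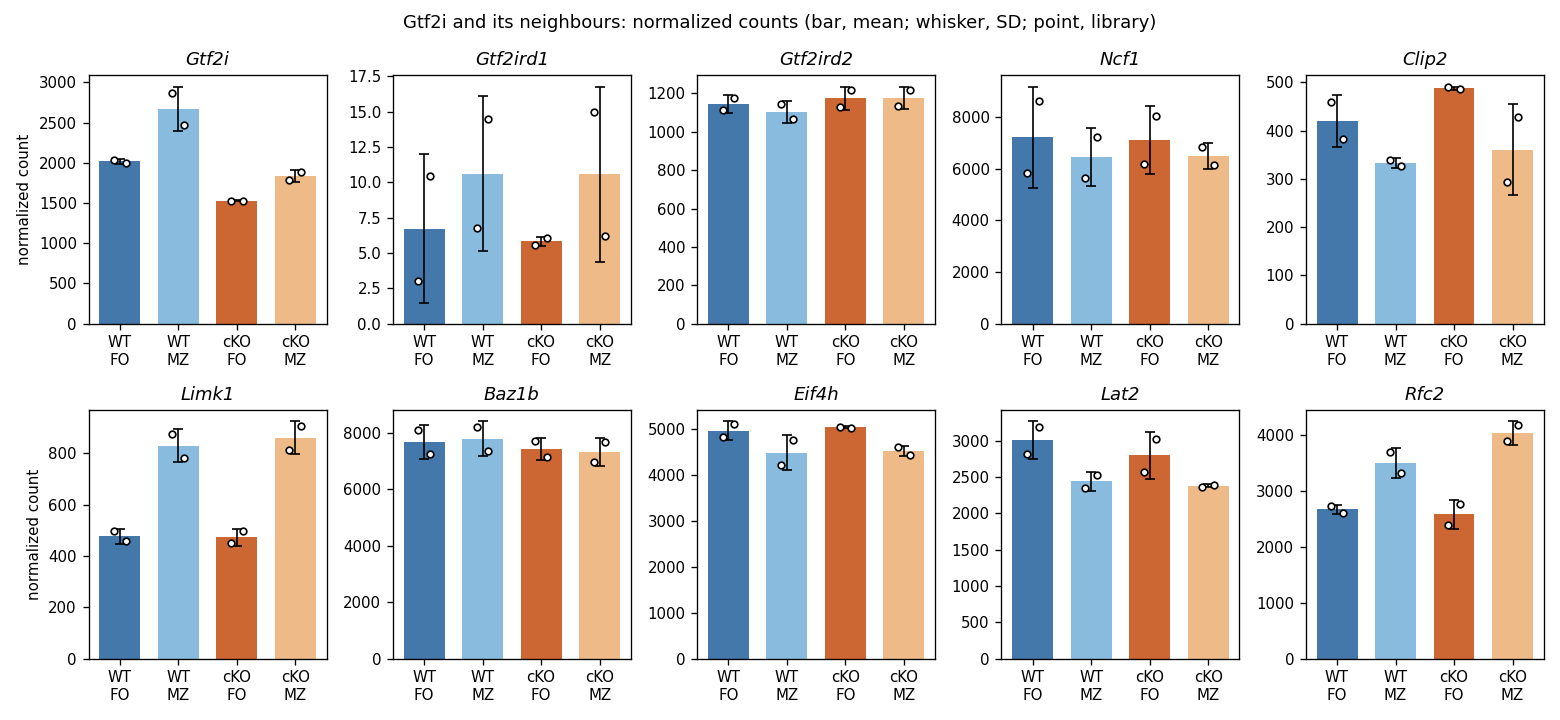
Normalized counts (y axis, starting at 0) of the 10 genes in WT and cKO FO and MZ B cells; bars are means of 2 libraries, whiskers the SD and points the libraries. Gtf2i steps down from WT to cKO in both subsets, with 1523 to 1889 normalized counts in the cKO and 1992 to 2864 in the WT libraries, and Limk1 and Rfc2 stand higher in MZ in either genotype.

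The paralogs of Gtf2i, which share its helix-loop-helix-like repeats, had no called difference (Gtf2ird2) or too few reads for the limma fit (Gtf2ird1). Gtf2ird2 had normalized counts of 1112 and 1177 in WT and of 1131 and 1217 in cKO FO B cells. In MZ B cells the counts were 1146 and 1065 in WT and 1134 and 1218 in cKO. The genotypes overlapped in both subsets. Over both subsets its log2 difference was 0.06 (95% confidence interval -0.09 to 0.22, limma adjusted p = 0.905), which leaves room for a level in cKO between 93.7% and 116% of that in WT. Gtf2ird1 was at most 15.0 normalized counts in any library, from 3 to 16 reads, and was left out of the limma fit because its mean was under 10. Its normalized counts in FO B cells were 2.99 and 10.5 in WT against 5.60 and 6.04 in cKO, and in MZ B cells 6.74 and 14.5 against 15.0 and 6.19. A difference between genotypes was not detectable at this depth, with a log2 difference over both subsets of -0.01 (exact permutation test within subsets, two-sided p = 1.0).

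The 8 tested members other than Gtf2i had log2 differences between cKO and WT over both subsets from -0.07 to 0.16, with limma adjusted p of at least 0.883. The ends of their 95% confidence intervals reached from -0.34, for Ncf1, to 0.47, for Clip2. Ncf1, the organizer subunit p47phox of the phagocyte NADPH oxidase, was the least precise. Ncf1 had normalized counts of 5829 and 8603 in WT and of 6182 and 8034 in cKO FO B cells. In MZ B cells the counts were 5655 and 7240 in WT and 6847 and 6144 in cKO. The libraries of a group differed more than the groups did, and the log2 difference over both subsets was 0.01 (SE 0.15). Ncf1 is also a gene of granulocytes, whose genes were high in cKO MZ replicate 1. Without that library its difference over both subsets was -0.03.

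Clip2, which encodes a microtubule-binding protein, had normalized counts of 459 and 382 in WT and of 490 and 486 in cKO FO B cells. In MZ B cells the counts were 340 and 326 in WT and 294 and 428 in cKO. It was higher in both cKO than in both WT libraries in FO, whereas the genotypes overlapped in MZ B cells. With 2 libraries against 2, the p of an exact permutation test cannot fall under 0.333. The log2 difference over both subsets was 0.16 (SE 0.13, limma adjusted p = 0.883). Baz1b, a subunit of a chromatin remodelling complex with Smarca5, was between 6981 and 8226 normalized counts in all 8 libraries and its groups all overlapped. Eif4h, a cofactor of the RNA helicase eIF4A in translation initiation, was between 4212 and 5110. Their log2 differences over both subsets were -0.07 (SE 0.073) and 0.02 (SE 0.062).

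**Figure D2:**
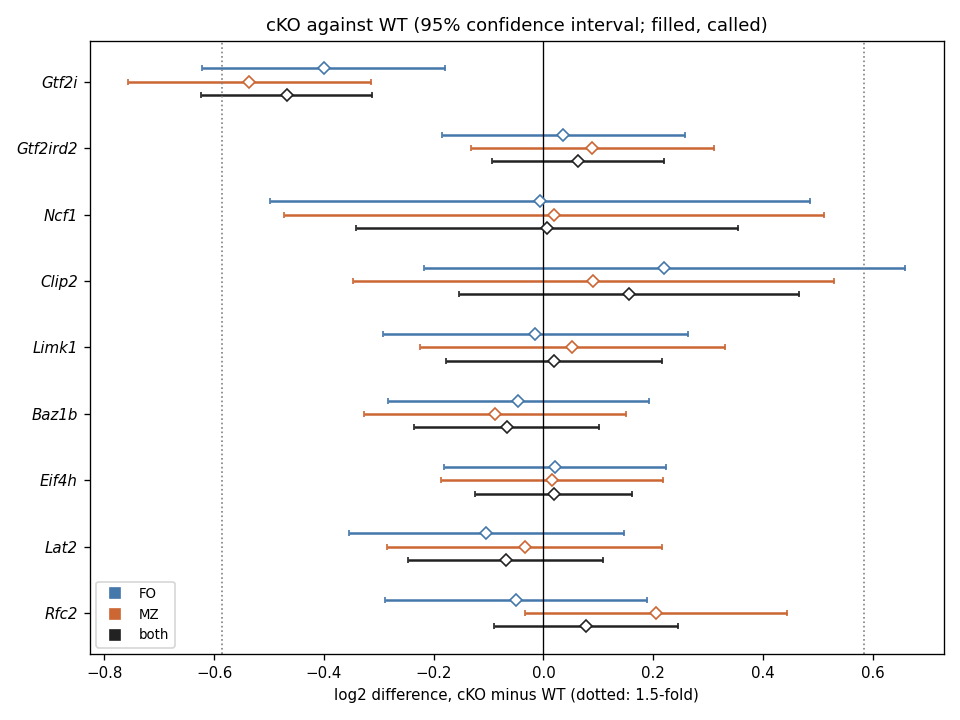
Log2 difference, cKO minus WT, in FO, in MZ and averaged over both subsets, for the 9 tested members; whiskers are 95% confidence intervals, dotted lines 1.5-fold and filled points called differences. Among the genes drawn, the interval of Gtf2i (-0.62 to -0.31 over both subsets) is the 1 that lies wholly below 0, in FO and in MZ too, and its points stay inside the 1.5-fold lines.

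FO and MZ B cells were next compared within each genotype. Of the 9 members, 1 (Limk1) was called in WT and 2 (Limk1 and Rfc2) in cKO, all of them lower in FO. Of all tested genes, 12.0% were called in WT and 13.7% in cKO, so that a share of this size is near the background. By adjusted p alone, without the 1.5-fold limit, 3 members (Limk1, Gtf2i and Rfc2) passed in WT and 2 (Limk1 and Rfc2) in cKO, against 16.9% and 19.6% of all genes. In 6 of the 9 members the FO and MZ libraries did not overlap and lay in the same direction in both genotypes, against 43.8% of all genes. Limk1, Rfc2 and Gtf2i were lower in FO, and Clip2, Eif4h and Lat2 were higher in FO, the last 3 without passing the test in either genotype.

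Limk1 encodes LIM kinase, which phosphorylates cofilin and so blocks the severing of actin filaments. It was at 498 and 457 normalized counts in WT FO against 875 and 783 in WT MZ B cells, and at 449 and 496 in cKO FO against 814 and 905 in cKO MZ. Each MZ library was above each FO library, while the genotypes overlapped in both subsets. Limk1 in FO was at 57.7% of its MZ level in WT (95% confidence interval 47.6% to 69.9%) and at 55.0% in cKO (45.4% to 66.7%). The log2 differences were -0.79 (SE 0.12, limma adjusted p = 0.0043) and -0.86 (SE 0.12, limma adjusted p = 0.0026). The call was made in each of the 16 alternatives of either comparison.

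Rfc2, a small subunit of the clamp loader that places PCNA on DNA, was at 2732 and 2610 normalized counts in WT FO against 3698 and 3318 in WT MZ B cells. In cKO it was at 2401 and 2771 in FO against 3895 and 4187 in MZ B cells. The subsets did not overlap in either genotype. In MZ B cells both cKO libraries were above both WT libraries, with a log2 difference of 0.21 that did not pass the test (limma adjusted p = 0.998). FO minus MZ, its log2 difference was -0.39 in WT (SE 0.10, limma adjusted p = 0.0378), under 1.5-fold. In cKO it was -0.65 (SE 0.10, limma adjusted p = 0.0047). Without cKO FO replicate 1 the difference in cKO was -0.54 and under 1.5-fold. Passing in 1 genotype does not show that the genotypes differ, and the interaction, the genotype difference in MZ minus that in FO, was 0.26 (95% confidence interval -0.08 to 0.59, limma adjusted p = 1.00). Whether reads from the overlap with Lat2 are part of this count is not known, since the strand setting is not given.

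Gtf2i was lower in FO as well, at 75.8% of the MZ level in WT (95% confidence interval 65.0% to 88.3%) and at 83.2% in cKO (71.4% to 97.0%). The log2 differences were -0.40 (limma adjusted p = 0.0265) and -0.26 (limma adjusted p = 0.0922), both under 1.5-fold. The interaction for Gtf2i was -0.14 (SE 0.13, 95% confidence interval -0.45 to 0.18, limma adjusted p = 1.00), and for Limk1 it was 0.07 (SE 0.17). No member, and 0.0% of all genes, was called for the interaction by limma, edgeR or DESeq2, with 0 members and 94 of all genes at an unadjusted p under 0.05 by limma.

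Lat2, an adaptor at the membrane that is phosphorylated after B cell receptor engagement, was at 2816 and 3186 normalized counts in WT FO against 2348 and 2529 in WT MZ B cells, and at 2570 and 3023 in cKO FO against 2366 and 2394 in cKO MZ. In WT and in cKO the FO libraries lay above the MZ libraries. Its log2 difference was 0.30 in WT (SE 0.11, limma adjusted p = 0.106), and in cKO, where it was 0.23, the limma adjusted p was 0.186. Lat2 and Rfc2, whose exons overlap, thus had differences of opposite sign between FO and MZ B cells. Clip2 had log2 differences of 0.33 in WT and 0.46 in cKO (SE 0.19 in both, limma adjusted p = 0.287 and 0.133), and Eif4h of 0.15 and 0.16. Those of Gtf2ird2, Ncf1 and Baz1b lay between -0.02 and 0.15.

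**Figure D3:**
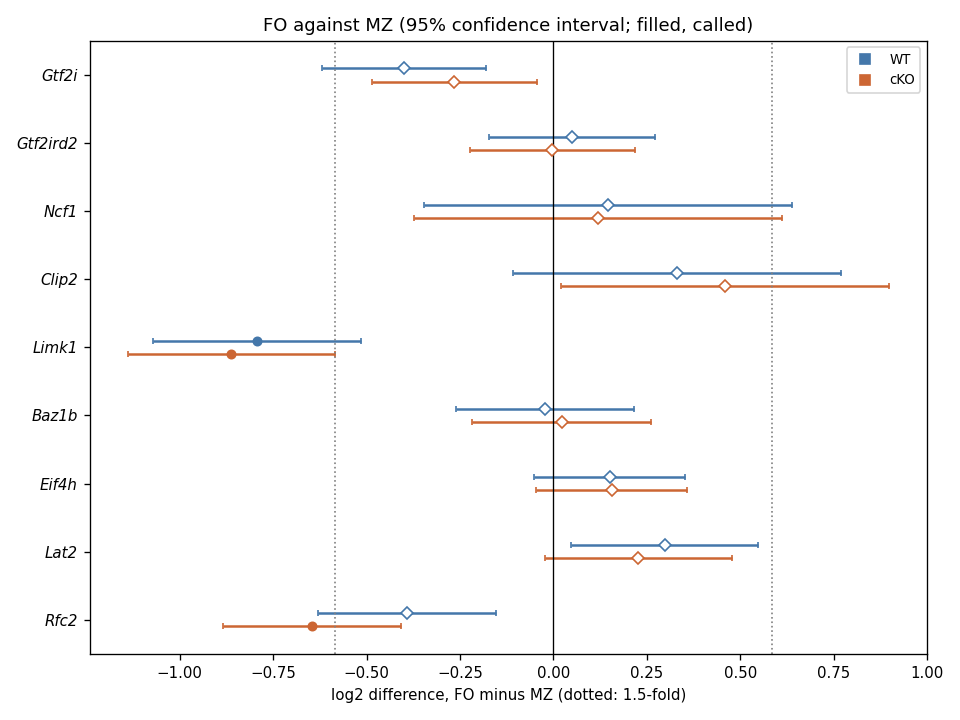
Log2 difference, FO minus MZ, in WT and cKO for the 9 tested members; whiskers are 95% confidence intervals, dotted lines 1.5-fold and filled points called differences. Limk1 is called in both genotypes (-0.79 and -0.86), Rfc2 in cKO (-0.65), and the WT and cKO intervals of each member overlap.

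Levels of different genes were compared per kilobase of exon. On this scale and over the 8 libraries, Ncf1 was highest at 1861 normalized counts per kb, followed by Lat2 at 1013, Eif4h at 857, Baz1b at 553 and Rfc2 at 508. Gtf2i (197) and Gtf2ird2 (185) followed, and Limk1 (92.1), Clip2 (77.3) and Gtf2ird1 (1.11) were lowest. In WT FO B cells Gtf2i was at 198 ± 3.30 and Gtf2ird2 at 185 ± 7.43 normalized counts per kb (SD, n = 2). In cKO FO B cells the order was the other way, with Gtf2i at 150 ± 0.567 and Gtf2ird2 at 189 ± 9.81. These levels depend on the length used. Per kb of the longest transcript Gtf2i was at 452 and Gtf2ird2 at 330 over all libraries, and in cKO FO B cells Gtf2i, at 343, was not below Gtf2ird2, at 337. On that scale Eif4h also passed Lat2, and the other places in the order over all libraries were as above.

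Inside the body of Gtf2i, on the same strand, GENCODE places Gm43481, an unspliced transcript of the class that GENCODE marks for experimental checks (chr5:134267065-134270736), with 0 bases in Gtf2i exons. Gm43481 had normalized counts of 60.9 and 82.8 in WT and of 66.1 and 73.5 in cKO FO B cells. In MZ B cells the counts were 109 and 111 in WT and 113 and 114 in cKO. Its genotypes overlapped in FO, and in MZ both cKO libraries lay just above both WT libraries, with a log2 difference over both subsets of 0.01 (95% confidence interval -0.36 to 0.38, limma adjusted p = 0.996), beside -0.47 for the exons of Gtf2i. Like Gtf2i it had lower counts in FO, with log2 differences of -0.63 in WT and -0.70 in cKO that did not pass the test (limma adjusted p = 0.103 and 0.0674).

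Within 2 Mb of Gtf2i the table held 77 genes, of which 37 besides Gtf2i were tested. Their log2 differences between cKO and WT over both subsets lay between -0.61 and 0.35 with a median of 0.0043, beside a median of -0.0116 over all tested genes. By limma 0 of the 37 had an adjusted p of at most 0.05 (lowest 0.270), while an unadjusted p under 0.05 was seen for 3 of them and for 978 of the 14761 genes. Sh2b2, an adaptor of receptor tyrosine kinases 1.90 Mb from Gtf2i, had a log2 difference of -0.61 (SE 0.13, limma adjusted p = 0.270). Cux1, a homeodomain factor next to it, was at -0.28 (SE 0.067, limma adjusted p = 0.470), and Rasa4, a GTPase-activating protein for Ras, at 0.30 (SE 0.084, limma adjusted p = 0.608). Sh2b2 and Cux1 were the 2 of the 37 with every cKO library below every WT library of its subset in both subsets, a share near the 5.46% of all tested genes.

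**Figure D4:**
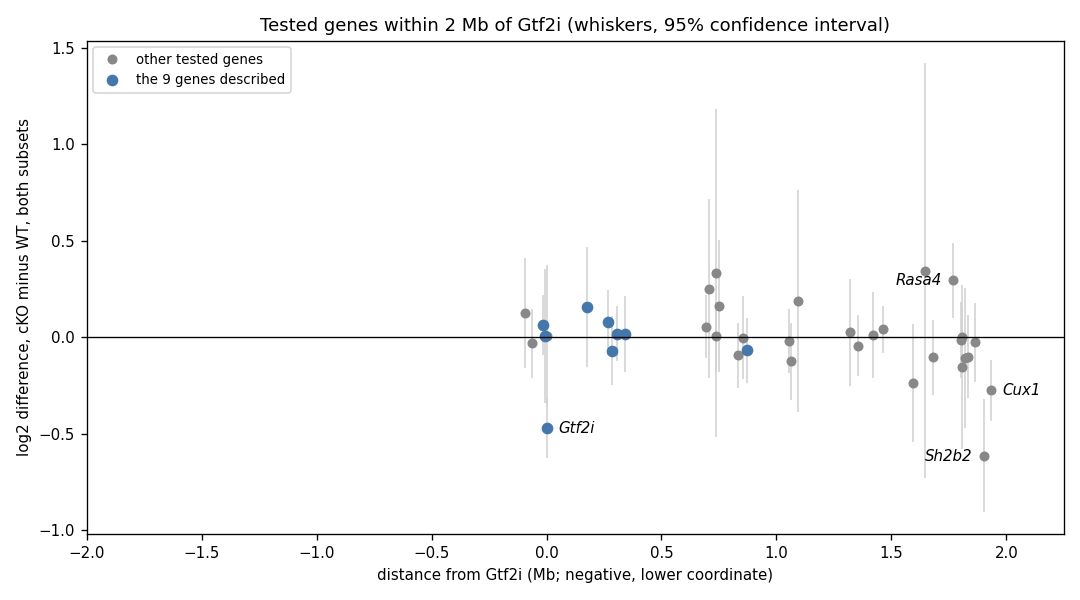
Log2 difference, cKO minus WT over both subsets (y axis), against distance from Gtf2i in Mb (x axis) for the 38 tested genes within 2 Mb; whiskers are 95% confidence intervals. Gtf2i lies at -0.47 amid immediate neighbours between -0.07 and 0.16, and Sh2b2 at -0.61 near the right edge.

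The other genes of the Williams region numbered 21 on the list used, of which 11 were tested. By limma 0 of them were called in any of the 6 comparisons, with 0 at an unadjusted p under 0.05. Of all tested genes, 12.0% were called between FO and MZ in WT, 13.7% in cKO and at most 0.108% in the other comparisons. With so few genes listed, 0 calls are not far from these shares. The median log2 difference of the 11 between cKO and WT over both subsets was 0.0043. Of the 6 partners of TFII-I (Btk, Pou2af1, Arid3a, Usf1, Usf2 and Ctcf), 0 were called in any comparison, beside the same shares of all tested genes. Btk passed by adjusted p alone between FO and MZ in WT, with a log2 difference of 0.30 (limma adjusted p = 0.0366). Arid3a, the B cell factor Bright, had the lowest p between genotypes, with a log2 difference over both subsets of -0.40 (SE 0.12, limma adjusted p = 0.620), and was the 1 partner with an unadjusted p under 0.05 there. In Btk, Arid3a and Ctcf, 3 of the 6, every cKO library was below every WT library of its subset in both subsets, a pattern of 5.46% of all tested genes, with log2 differences over both subsets of -0.10 for Btk and -0.07 for Ctcf (limma adjusted p = 0.818 and 0.869). DESeq2 and edgeR also called 0 genes of these 2 lists.

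The genes that work with each neighbour were taken from 7 further lists. Between cKO and WT, 0 of their genes were called in FO, in MZ or over both subsets by limma, DESeq2 or edgeR. Of all tested genes, limma called at most 0.108% in these comparisons. Pak1, a kinase that activates LIM kinase, was the 1 gene of these lists with an unadjusted p under 0.05, in FO and over both subsets, where its log2 difference was 0.65 (SE 0.22, limma adjusted p = 0.667). Among the 6 partners of Ncf1 in the NADPH oxidase, Cybb, the catalytic subunit gp91phox, was called between FO and MZ. It was at 9007 and 10427 normalized counts in WT FO against 16888 and 18624 in WT MZ B cells, and at 8964 and 9454 in cKO FO against 17600 and 19782 in cKO MZ. The subsets were wholly apart, with log2 differences of -0.87 in WT and -1.02 in cKO (limma adjusted p = 0.0020 and 0.00091), while Ncf1 was at 0.15 and 0.12. The other 5 partners were not called. Of all tested genes, 12.0% were called between FO and MZ in WT and 13.7% in cKO. A share of 1 in 6 is near this background.

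Of the 10 genes around Limk1 in the control of cofilin, 3 were called with higher levels in FO in WT and 1 in cKO, with 0 lower, beside 12.0% and 13.7% of all genes called in either direction. By adjusted p alone, 3 passed in WT and 5 in cKO, beside 16.9% and 19.6%. The median log2 difference of the 10 was 0.27 in WT and 0.38 in cKO, beside 0.0048 and 0.0047 over all genes. Ssh2, a phosphatase that removes the phosphate LIM kinase adds to cofilin, was called in both genotypes at 1.15 and 1.30 (limma adjusted p = 0.0169 and 0.0091). Rock2, a kinase that activates LIM kinase, and Cfl2, a cofilin, were called in WT, at 0.61 and 0.66 (limma adjusted p = 0.010 and 0.0456). In both genotypes, FO B cells thus had less Limk1 and more Ssh2 RNA than MZ B cells. Limk2, the LIM kinase gene on this list, lay the other way from Limk1 but was not called. Its normalized counts were 2396 and 2427 in WT FO against 2041 and 2174 in WT MZ B cells. In cKO they were 2386 and 2517 in FO against 1850 and 1984 in MZ. Phosphorylation of cofilin was not measured.

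Of the 4 other subunits of replication factor C, only Rfc1, the large subunit, was called, with more RNA in FO. Its log2 differences were 0.78 in WT and 0.68 in cKO (limma adjusted p = 0.0188 and 0.0285), opposite in sign to Rfc2. Rfc4 lay in the direction of Rfc2 in WT, with 217 and 225 normalized counts in FO against 265 and 333 in MZ, and overlapped in cKO. Rfc3 was higher in FO without overlap in both genotypes, and Rfc5 overlapped in both. Of the 5 proteins of B cell receptor signalling beside Lat2 (Syk, Lyn, Grb2, Blnk and Plcg2), the adaptor Blnk was lower in FO in WT, at -0.68 (limma adjusted p = 0.0297), and at -0.57 in cKO, under 1.5-fold. Of the 5 eIF4 factors, the helicase Eif4a1, which Eif4h stimulates, was called lower in FO in cKO, at -0.75 (limma adjusted p = 0.0149). In WT it was at -0.51. No list here had more than 1 gene called in either genotype, beside 12.0% of all tested genes in WT and 13.7% in cKO. None of the 3 genes listed with Baz1b (Smarca5, Baz1a and H2ax) was called by limma, DESeq2 or edgeR in any comparison. Nor was Clip1, the 1 tested gene of the 3 other CLIP genes. In each of the lists of Baz1b and CLIP genes, 1 gene had an unadjusted p under 0.05 between FO and MZ in WT by limma. For replication factor C, B cell receptor signalling and the eIF4 factors, 2 genes of each list did. So did 4469 of all 14761 tested genes.

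The 5 tested genes whose log2 levels followed Gtf2i most closely over the 8 libraries were Mllt3 (Pearson r = 0.962), Gm6793 (0.944), Acsl4 (0.940), Nrgn (0.937) and Anxa11 (0.933). These values describe the same 8 libraries, were taken from 14761 genes for their size and carry no test. Mllt3, a reader of acylated histones, had normalized counts of 464 and 472 in WT and of 418 and 396 in cKO FO B cells. In MZ B cells the counts were 546 and 537 in WT and 414 and 456 in cKO. Its log2 difference between cKO and WT over both subsets was -0.26 (limma adjusted p = 0.646). Among the members, the highest correlation with Gtf2i was that of Limk1 (0.558) and the lowest that of Eif4h (-0.651).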

How the data were processed

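Ribosomal RNA-depleted RNA of sorted FO and MZ B cells was sequenced as single-end reads of 50 bases, aligned by the authors with HISAT2 to mm10 and counted on genes with featureCounts and htseq-count. The authors deposited the signal as counts divided by DESeq2 size factors, for 27928 genes and 8 libraries. 256343 blank lines at the end of the table were left out. Multiplied by these factors, 100% of the values came within 0.01 of a whole read. The libraries had between 21546552 and 25083552 reads on genes, so counting error is small except for genes with few reads. The 8 ATAC-seq samples were not analysed here.

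Log2(normalized count + 1) of the 8 libraries was modelled as 4 groups in limma 3.58.1 (R 4.3.3; lmFit, eBayes with trend), keeping the 14761 genes whose normalized count averaged 10 or more. The comparisons were cKO against WT in FO, in MZ and averaged over both, FO against MZ in each genotype, and the interaction. A gene was called when its p, adjusted by Benjamini-Hochberg, was 0.05 or lower and its change 1.5-fold or more. The pseudocount makes differences of low genes smaller. As alternatives, the pseudocount was set to 0.5, the filter was dropped, quantiles were normalized, the fit was limited to 4 libraries, replicate numbers entered as a block, the reads were tested by DESeq2 1.42.0 and edgeR 4.0.16 (quasi-likelihood), the fold cutoff was dropped, and each library was left out. The fit with no interaction was added after seeing the data. The scripts were tested on simulated data.

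Coordinates and exon lengths are from GENCODE M21, in which 27872 identifiers were found, and promoters from RefSeq. The text names the 10 members, genes of 9 lists of neighbouring or partner genes, the tested genes within 2 Mb of Gtf2i that had an unadjusted p under 0.05 or lie inside it, and the 5 genes most correlated with Gtf2i. The members and lists were chosen with earlier results of these data known. A further item is not reported here.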

Additional observations from a re-analysis of the deposited data

How the results depend on the processing

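Under all alternatives, the fit without an interaction included, 0 members were called between cKO and WT or for the interaction, and 1 (Limk1) was called between FO and MZ in WT, except that without a fold cutoff there were 3. Between FO and MZ in cKO, 1 to 2 were called when a library was left out and 2 otherwise, Rfc2 being lost without cKO FO replicate 1. The adjusted p of Gtf2i over both subsets lay between 0.000235 (DESeq2) and 0.346 over 16 alternatives, and its log2 difference between -0.52 and -0.41. With the replicate block 0 members were called between genotypes, and Gtf2i over both subsets had an adjusted p of 0.0785. The numbers were not taken to pair the samples, since the correlation of their deviations was not above 0.1 in each of the 6 pairs of groups (-0.30 to 0.59). It was highest, at 0.59, between WT FO and WT MZ, and was -0.0015 between cKO FO and cKO MZ. FO and MZ B cells can come from the same mouse only within a genotype, and pairing within WT alone was not tested. Between FO and MZ in WT the block, a shift shared by all groups, again gave 1 called member. The block brought the limma adjusted p of Lat2 there from 0.106 to 0.049, under 1.5-fold.

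Small differences that did not pass the test changed sign when a library was left out. Between cKO and WT in FO the ranges were -0.016 to 0.089 for Gtf2ird2, -0.29 to 0.27 for Ncf1, -0.087 to 0.057 for Limk1, -0.13 to 0.036 for Baz1b, -0.019 to 0.062 for Eif4h, -0.22 to 0.013 for Lat2 and -0.15 to 0.053 for Rfc2. In MZ they were -0.16 to 0.20 for Ncf1, -0.18 to 0.36 for Clip2, -0.026 to 0.13 for Limk1, -0.072 to 0.10 for Eif4h and -0.088 to 0.020 for Lat2. Over both subsets they were -0.13 to 0.15 for Ncf1, -0.021 to 0.059 for Limk1 and -0.025 to 0.062 for Eif4h. Between FO and MZ in WT they were -0.0029 to 0.10 for Gtf2ird2, -0.13 to 0.43 for Ncf1 and -0.10 to 0.060 for Baz1b, and in cKO -0.056 to 0.050 for Gtf2ird2, -0.069 to 0.31 for Ncf1 and -0.046 to 0.090 for Baz1b. The interaction of Limk1 lay between -0.012 and 0.15. Quantile normalization gave 0.0021 for Ncf1 in FO and 0.026 for Lat2 in MZ between genotypes, and -0.059 for Ncf1 and -0.16 for Baz1b between FO and MZ in cKO, and DESeq2 gave -0.0055 for Ncf1 over both subsets, each the other way from limma. The cause was not tested. Of the differences of single members, 715 alternatives kept both the direction and the call, 47 reversed the direction, 2 gained a call and 1 lost it. With 2 libraries a group, the libraries and not the depth limit the precision, except for Gtf2ird1.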
